A study of Homo sapiens with 8 samples.

Results

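The 43 genes described here encode subunits of the receptors for glutamate, GABA and glycine, the main fast transmitters of the brain. They were taken by symbol as rows of the deposited matrix, where all 43 were found among 60286 genes. They comprise 4 AMPA, 5 kainate, 8 NMDA and delta, 7 metabotropic glutamate, 13 GABA-A, 2 GABA-B and 4 glycine receptor genes. H1, a widely used line of human embryonic stem cells, gave rise to the neural cultures, whose cells were profiled by split-pool barcoded single-cell RNA sequencing. Each of 43693 cells carries the name of 1 of 46 culture tags, which fall into 17 groups and 9 arrangements, and the cells were sequenced as 8 sublibraries of 1 pool. Per the labels, the pool held 2-D and 3-D cultures, untreated or given dopamine, cocaine or morphine, and the series was made to define culture composition and transcriptional responses to these agents.

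Every group shares the H1 line and has no other allele or genotype in its labels. Arrangement 2DCocu has 12 tags and 3DFusi has 10, named AcCoc (4 and 4), AcMor (4 and 3) and Vehic (4 and 3). Arrangements 2DMono and 3DMono have 6 tags each, with 2 each named AcDop, AcMor and Vehic. The other 5 arrangements carry no treatment name: 2DProto2Fjo, 2DProto3Wu and 2DProto4Nic have 2 tags each, and 3DProto1For and 3DProto2Xia have 3 each. These tag names come from the cell names and are used as written, since the labels do not spell them out and give no dose, duration or culture age. A few organoids were dissociated together per preparation, per the labels' protocols, and nothing states whether tags are separate cultures, so p-values measure only the spread between tags, which may be technical.

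Ionotropic glutamate receptors are channels built from several subunits: AMPA receptors carry most fast excitation, kainate receptors tune release and excitability, and NMDA receptors need the obligatory GRIN1 subunit beside a GRIN2 or GRIN3 partner. Metabotropic glutamate and GABA-B receptors act through G proteins. GABA-A and glycine receptors are chloride channels likewise built from several subunits, and in immature neurons, where chloride is high, they can depolarise. Developing neurons are known for GLRA2-containing glycine receptors and for a shift from GRIN2B towards GRIN2A as they mature.

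Promoter sequence is shown for GRIA2 and GRM2, the members whose windows hold both searched parts of RE1. RE1 is the DNA element bound by REST, a repressor of neuronal genes in other cells, and its left and right parts were searched as the letters TTCAGCACC and GGACAGC on both strands of the RefSeq promoter windows (GRCh38.p14, 250 bases before to 50 after a start), which matched 35 of the 43 members with 53 windows. The left part occurred in 0.376% of 35116 windows of all genes. Counted by gene, it occurred in 0.469% of 27305 genes and in 2 of the 35 members (5.71%), GRIA2 and GRM2. The right part occurred in 6.03% of windows, which is 7.33% of genes, and in 7 of the 35 members (20%). The full spaced form TTCAGCACCNNGGACAGC occurred in 3 of 35116 windows, of which GRIA2 holds 1. The 2 elements are shown 5′ to 3′ on the plus strand with both parts in capitals. In GRM2 (chr3:51706862-51706891) they lie 7 bases apart on the gene's strand, upstream of the start. In GRIA2 (chr4:157220385-157220414) they lie 2 bases apart on the opposite strand, before an annotated start inside the gene's span.
GRM2: ggaTTCAGCACCacgaggcGGACAGCtcca
GRIA2: cgaggcGCTGTCCtcGGTGCTGAAaggccg

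A match to these letters is a description and not a measured binding site. GRIA2 encodes the AMPA subunit that makes the channel almost impermeable to calcium, and its level is given first below for neurons and other cells. GRM2 encodes an inhibitory metabotropic receptor and was sparse, with a median of 2.73 CPM in neuron-gated cells.

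The matrix holds 793413159 expected counts, with a median of 12776 per cell and 3624668 to 58777178 per tag. Of the cells, 4894 (11.2%) had a barcode that also occurs in another sublibrary, and 0 shared a barcode within a sublibrary. Cells with 4 or more of 8 neuron markers are called neuron-gated and were 27794 of all cells (63.6%). Progenitors and astrocytes are neural too and can fall outside this gate. Among them, glutamatergic-gated cells had 2 or more counts of the vesicular glutamate transporter genes SLC17A6 and SLC17A7 and none of GAD1, GAD2 and SLC32A1, which mark GABA neurons, and GABAergic-gated cells the reverse. These gates held 3320 and 8216 cells, and 747 cells positive for both were left out. They rest on these markers alone and can hold cycling cells, whose markers are given with the comparisons. Near the cut-offs, 6281 cells had 3 and 4705 had exactly 4 neuron markers, and a cut-off of 1 transmitter count would add 2737 glutamatergic and 1542 GABAergic cells. Finer classes, chosen after the data were seen, use further markers: NEUROD2 and NEUROD6 (cortical glutamatergic), DLX genes (DLX GABAergic), LHX6 and LHX8 (medial ganglionic eminence, MGE) and SLC6A5 (glycinergic).

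The classes were gated on their markers, so the marker levels describe the gates and do not check the names. SLC6A5, the glycine transporter of glycinergic terminals, had a median over tags of 614 CPM (383 to 872) in glycinergic-gated cells. GFAP reached 309.8 CPM (166 to 602) in 310 cells gated on astrocyte markers, whereas AQP4, of mature astrocytes, was low at 12.3 CPM (1.66 to 29). Collagen COL1A1 was at 3291 CPM (1414 to 7968) in 2241 cells gated on mesenchymal markers. Some classes came from few arrangements: of the tags with 20 or more cells, 10 of 11 glycinergic tags were of 2DCocu, 3 of 4 astrocyte-marker tags of 2DCocu and 1 of 2DMono, and 2 of 3 MGE tags of 2DProto3Wu and 1 of 3DProto2Xia. Medians over all tags therefore compare arrangements as well as classes, and values inside an arrangement are given beside them (neuron-gated cells include the neuron classes). All of these are descriptions of cells chosen by markers, with levels in CPM, the counts of a tag's cells in the class scaled to the same library total. CPM is not divided by transcript length, so levels are compared within a gene and not between genes. In whole cultures, fewer cells of a type and less RNA per cell cannot be told apart.

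Each of the 4 AMPA subunits had a lower median in mesenchymal-marker than in neuron-gated cells, at 29.3 against 558 CPM for GRIA1, 9.24 against 438 CPM for GRIA2, 34.3 against 245 CPM for GRIA3 and 22.4 against 107 CPM for GRIA4. The tags overlapped for all but GRIA1. GRIA2 had a median over tags of 730.0 CPM (361 to 1151) in cortical glutamatergic cells, 439.8 CPM (214 to 729.8) in DLX GABAergic cells, 35.1 CPM (18 to 81.1) in astrocyte-marker cells and 9.24 CPM (1.40 to 139) in mesenchymal-marker cells, where ranges are over tags. The tag ranges of cortical glutamatergic and astrocyte-marker cells did not overlap. At least 1 count of GRIA2 was found in 90.7% of glutamatergic-gated, 74.1% of GABAergic-gated, 32.6% of astrocyte-marker and 10.6% of mesenchymal-marker cells, the last being a type that should lack the gene. That share is read as background, and its source was not tested. Their median depths were 16073, 12334, 18627 and 14198 counts per cell. After thinning cells to 5000 counts the shares were 80.9%, 63.5%, 15.2% and 4.22%. Cells under 5000 counts (45, 297, 0 and 38) were left out of these thinned shares. GRIA1, the other main AMPA subunit of forebrain, was at 1149 CPM (392 to 2249) in cortical glutamatergic and 948 CPM (244 to 1587) in DLX GABAergic cells, against 351 CPM (184 to 460.3) in glycinergic cells. GRIA4, known from fast interneurons and brainstem, had the opposite order, with 44.5 CPM (10.5 to 284) in cortical glutamatergic and 499 CPM (371 to 788) in glycinergic cells. Inside 2DCocu, GRIA1 was at 508 CPM (392 to 638) in cortical glutamatergic and 346 CPM (184 to 460.3) in glycinergic cells, which overlap, and GRIA4 at 502 CPM (371 to 788) in glycinergic and 173 CPM (118 to 298) in all neuron-gated cells, which do not. GRIA3 was at 506 CPM (408 to 689) in the glycinergic cells of 2DCocu and 381 CPM (267 to 462) in its neuron-gated cells, which overlap.

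Among kainate subunits, GRIK2, GRIK3 and GRIK5 were higher in every neuron-gated tag than in any astrocyte-marker tag, whereas GRIK1 and GRIK4 overlapped. GRIK3, a low-affinity subunit, was at 239 CPM (135 to 413) in DLX GABAergic, 8.27 CPM (2.57 to 19.1) in astrocyte-marker and 2.23 CPM (0 to 113) in mesenchymal-marker cells. GRIK1, in contrast, was at 227 CPM (188 to 266) in astrocyte-marker cells and 123 CPM (49.9 to 277) over all neuron-gated cells, ranges that overlap, as they did inside 2DCocu (219.7 to 266 against 125 to 241 CPM). GRIK4, a high-affinity subunit, was at 171 CPM (128 to 195) in MGE cells of 3 tags and 154 CPM (113 to 248) in astrocyte-marker cells, against 52.7 CPM (13.6 to 162) in DLX GABAergic cells. Inside 2DProto3Wu the MGE and DLX values of GRIK4 overlapped, at 128 and 195 CPM and 131 and 162 CPM. GRIK5 was at 74.1 CPM (42.5 to 112) in neuron-gated and 33.7 CPM (9.46 to 38.5) in astrocyte-marker cells. GRIK2 was at 553 CPM (184 to 1086) in neuron-gated and 60.8 CPM (53.7 to 126) in astrocyte-marker cells, and was spread over neuron classes, from 456 CPM in cortical glutamatergic to 692 CPM in DLX-negative GABAergic cells.

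Among NMDA subunits, GRIN2A was high in astrocyte-marker cells. Its 4 astrocyte tags gave 174, 283, 511 and 527 CPM, against 64 CPM (16.4 to 239.8) in neuron-gated and 33.2 CPM (3.78 to 145) in glutamatergic-gated cells. A count was found in 74.2% of astrocyte-marker and 15.6% of glutamatergic-gated cells. Of the 4 astrocyte-marker values, 3 lay above every neuron-gated tag and the lowest lay inside the neuron-gated range. Neuron-gated GRIN2A was itself higher in 2DCocu, at 126 CPM (75.5 to 239.8), where the 3 astrocyte tags gave 174, 511 and 527 CPM. The 1 astrocyte tag of 2DMono, at 283 CPM, stood against 67.3 CPM (46.2 to 81.4) in neuron-gated cells there. GRIN1, without which no NMDA receptor forms, had the reverse order: its median was 60.01 CPM in glycinergic cells (22.9 to 92.3), 15.1 CPM in neuron-gated cells and 0 CPM in astrocyte-marker and mesenchymal-marker cells. GRIN2B, the subunit of immature neurons, was at 372 CPM (228 to 604) in neuron-gated, 292 CPM (193 to 353) in astrocyte-marker and 28.4 CPM (0 to 206) in mesenchymal-marker cells. GRIN2D and GRIN3A, which give receptors with weak magnesium block or low calcium entry, had medians of 67.8 and 42.5 CPM in glycinergic cells, against 24.1 and 13.9 CPM in neuron-gated cells. In the neuron-gated cells of 2DCocu they were at 28.9 and 17.8 CPM, and GRIN1 at 20.1 CPM.

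Of the metabotropic receptors, GRM8 and GRM7, both presynaptic inhibitory receptors, had their highest medians over all tags in different classes: GRM8 was at 339 CPM (225 to 453) in astrocyte-marker cells and GRM7 at 326 CPM (252 to 722) in glycinergic cells. Inside 2DCocu, neuron-gated cells had 163 CPM (110.3 to 257) of GRM8, below its 3 astrocyte tags, and 172 CPM (124 to 202) of GRM7, below its 10 glycinergic tags. GABAergic-gated cells there had 286 CPM (169.5 to 448) of GRM8, overlapping the astrocyte tags, and 272 CPM (207 to 399) of GRM7, overlapping the glycinergic tags. DLX-negative GABAergic cells had 333 CPM (24 to 1117) of GRM8 over all tags, close to astrocyte-marker cells. In cortical glutamatergic cells the medians over all tags were 76.7 and 64.6 CPM. GRM5, which couples to calcium release, ranged from a median of 102 CPM in astrocyte-marker to 319 CPM in glycinergic cells, and GRM3 from 56.8 to 205 CPM in cortical glutamatergic cells. GRM2, GRM4 and GRM6 were low throughout, with neuron-gated medians of 2.73, 8.04 and 1.32 CPM.

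GABBR2 and GLRA2 varied more between class medians than GABBR1, and no test was made between classes. GABBR2, the GABA-B subunit that couples to the G protein, was at 325 CPM (71.2 to 441) in glycinergic and 292 CPM (163 to 555) in astrocyte-marker cells, against 75.1 CPM (29.5 to 403) in DLX GABAergic and 7.91 CPM (1.46 to 290.4) in mesenchymal-marker cells. GABBR1, its ligand-binding partner, had closer medians, at 119.9 CPM in neuron-gated, 96.1 CPM in astrocyte-marker and 114 CPM in mesenchymal-marker cells. GLRA2, the fetal glycine receptor subunit, was at 217 CPM (149.8 to 287) in glycinergic, 61.9 CPM (19.2 to 273) in neuron-gated and 16.6 CPM (1.52 to 77.4) in mesenchymal-marker cells. Inside 2DCocu alone the first 2 were close, at 211 CPM (149.8 to 287) in glycinergic and 192 CPM (72.2 to 273) in neuron-gated cells, with overlapping tags. GABBR2, in contrast, was at 337 CPM (284 to 441) and 157 CPM (109.8 to 192) there, without overlap. The share of cells with a GLRA2 count was 70.2% in glycinergic, 31.6% in glutamatergic-gated and 13.5% in mesenchymal-marker cells. GLRA1, the subunit of mature glycine receptors, was at 33.4 CPM (18 to 60.9) in glycinergic cells and 15.5 CPM in neuron-gated cells, and GLRB, the anchoring subunit, reached 51.7 CPM (28.6 to 79.8) in cortical glutamatergic cells.

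GABA-A subunits were of several kinds. In the MGE cells of 3 tags, GABRG3 had a median of 389 CPM (333 to 456), GABRA2 103 CPM (67.4 to 132) and GABRA3 85.7 CPM (54.1 to 102), against 166, 39.9 and 31.2 CPM in neuron-gated cells. Inside 2DProto3Wu, which gave 389 of the 489 MGE cells, the 2 MGE tags had 333 and 389 CPM of GABRG3 against 385 and 481 CPM in neuron-gated cells, 67.4 and 103 against 48.6 and 73.5 CPM of GABRA2 and 85.7 and 102 against 83.8 and 86.2 CPM of GABRA3. All 3 genes overlapped between the classes there. GABRA2 and GABRA3 are alpha subunits of early neurons, and GABRG3 is a gamma subunit. GABRE, the epsilon subunit, ran the other way: it was at 15.7 CPM (3.90 to 56.9) in mesenchymal-marker cells and 2.75 CPM in neuron-gated cells, and was counted in 15.2% of the former and 2.83% of glutamatergic-gated cells. GABRA2 and GABRB2 were at 1.57 and 1.84 CPM in mesenchymal-marker cells. GABRD and GABRP, of tonic and epithelial GABA-A receptors, totalled 169 and 126 counts over all cells and passed the low-count filter in no comparison.

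**Figure D1:**
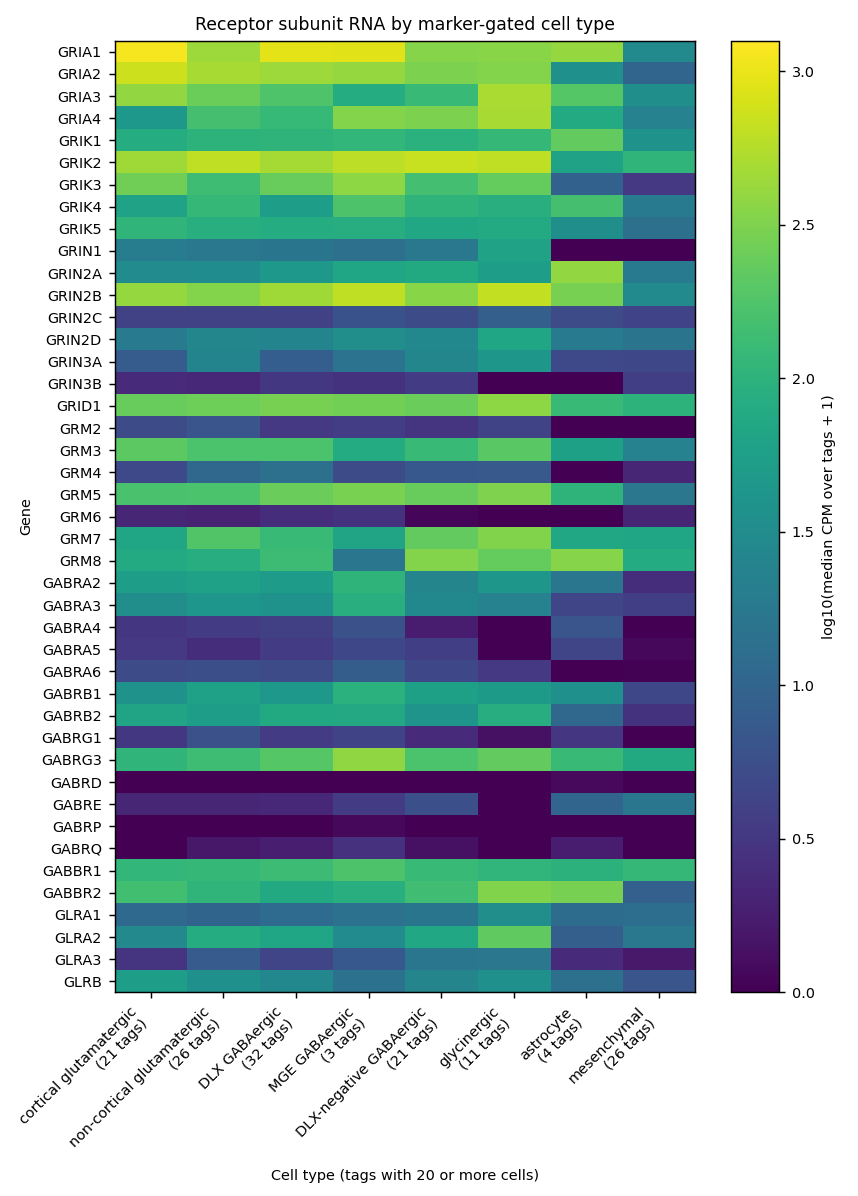
Median level of each of the 43 receptor genes (rows) over the tags with 20 or more cells, in 8 marker-gated classes (columns), as colour on a log10(CPM + 1) scale. GRIN2A, GRIK1 and GRM8 are bright in the astrocyte column, GLRA2 and GRIA4 in the glycinergic column, whose tags are 10 of 11 from 2DCocu, and most rows are dark in the mesenchymal column.

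Glutamatergic-gated and GABAergic-gated cells of the same 39 tags were then compared, with the tag as a block and the gating genes left out of the fit. Of 31 members tested, 8 were higher and 6 lower in glutamatergic-gated cells, against 37.4% of all 11382 genes called (19.3% higher and 18.1% lower), so the members' share (45.2%) was near the background. The other 12 members did not pass the filter. Over the tested members the median log2 fold change was 0.02, and over all genes tested 0.00. Of the 4 AMPA subunits GRIA1, GRIA2 and GRIA3 were higher and GRIA4 lower, the anchoring glycine subunit GLRB was higher, and GRM8 and GRIN2A were lower. Beside the levels, changes are given as log2 fold change ± SE.

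GRIA2 ran from 378 to 1433 CPM (median 663) in glutamatergic-gated against 86.1 to 739 CPM (median 387) in GABAergic-gated cells. It was higher in the glutamatergic gate in 39 of 39 tags, although the ranges over tags overlapped (log2 change 0.93 ± 0.08, edgeR adjusted p = 1.77e-13). GLRB ran from 22.6 to 89.99 CPM (median 50.6) in glutamatergic-gated against 10.7 to 46.3 CPM (median 29) in GABAergic-gated cells, and was higher in 37 tags (log2 change 0.87 ± 0.08, edgeR adjusted p = 1.14e-11). GRIK5, a kainate receptor subunit, ran from 49.1 to 166 CPM (median 94.2) in glutamatergic-gated against 33.6 to 110.4 CPM (median 72.6) in GABAergic-gated cells and was higher in 34 tags (log2 change 0.37 ± 0.05, edgeR adjusted p = 1.96e-07). Within tags these 3 genes thus differed in nearly all tags, by less than the span between tags. GRIA3 was higher in 26 tags (log2 change 0.49 ± 0.12, edgeR adjusted p = 0.00165), GABRA2 in 26 (log2 change 0.56 ± 0.16, edgeR adjusted p = 0.00447) and GABRB1, a beta subunit, in 24 (log2 change 0.51 ± 0.20, edgeR adjusted p = 0.0372). GRIA1 and GRM3 were also higher, by 0.27 and 0.31 on the log2 scale. The call of GABRB1 was kept in 4 of 14 other settings (adjusted p up to 0.369) and that of GRIA1 in 6 of 14 other settings (adjusted p up to 0.424), so both calls depend on the setting.

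On the lower side, GRM8 ran from 13 to 430.0 CPM (median 69.5) in glutamatergic-gated against 15 to 1599.9 CPM (median 241) in GABAergic-gated cells. It was higher in the glutamatergic gate in 8 of 39 tags (log2 change -1.62 ± 0.24, edgeR adjusted p = 8.21e-07). GRIN2A ran from 3.20 to 155 CPM (median 36.7) in glutamatergic-gated against 11.6 to 251 CPM (median 65.2) in GABAergic-gated cells, with 9 tags higher (log2 change -0.77 ± 0.19, edgeR adjusted p = 0.00131). GRIA4 ran from 11 to 688 CPM (median 106) in glutamatergic-gated against 42.9 to 653 CPM (median 149) in GABAergic-gated cells, with 10 tags higher (log2 change -0.74 ± 0.17, edgeR adjusted p = 0.000635). All 3 overlapped widely between gates when tags were not matched. GRM4 (log2 change -0.66 ± 0.24, edgeR adjusted p = 0.0243), GRM5 (log2 change -0.61 ± 0.19, edgeR adjusted p = 0.00972) and GRIN2D (log2 change -0.30 ± 0.12, edgeR adjusted p = 0.0411) were lower too, although GRIN2D was at 0.00365 without the 2DCocu tags, and the call of GRM4 was kept in 9 of 14 other settings (adjusted p up to 0.194). GRIN2B (log2 change -0.10 ± 0.11, edgeR adjusted p = 0.563) and GLRA2 (log2 change -0.24 ± 0.18, edgeR adjusted p = 0.326) did not pass. Beside these, neuron markers were 6 higher and 0 lower of 8 tested (median log2 fold change 0.48), progenitor markers 0 higher and 3 lower of 4 tested (median log2 fold change -0.72) and cycling markers 0 higher and 3 lower of 4 tested (median log2 fold change -0.68). Mesenchymal markers were 0 higher and 3 lower of 4 tested (median log2 fold change -0.74), astrocyte markers 1 higher and 2 lower of 3 and choroid plexus markers 0 higher and 1 lower of 1. Glutamatergic-gated cells were also deeper (median 16073 against 12334 counts per cell). The part of marker lists and depth in the result was not tested.

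**Figure D2:**
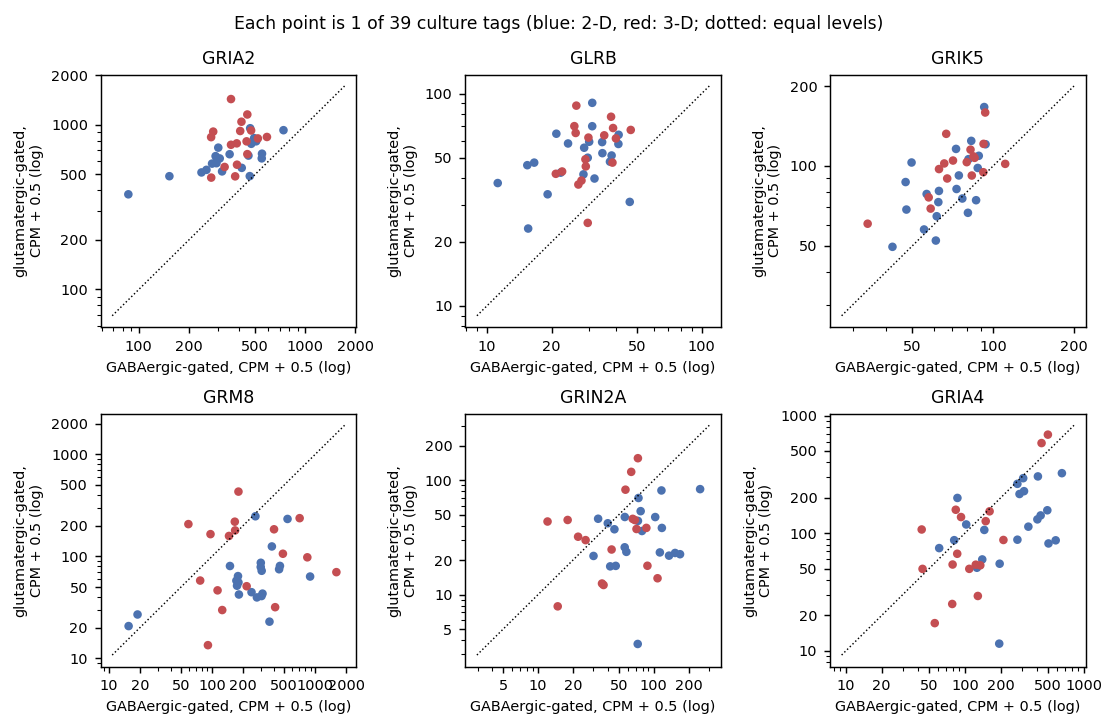
Level of 6 receptor genes in GABAergic-gated (x axis) and glutamatergic-gated cells (y axis) of the same tag, both as CPM + 0.5 on log axes, with 1 point for each of 39 tags and a dotted line of equal levels. GRIA2, GLRB and GRIK5 points lie mostly above the line, and GRM8, GRIN2A and GRIA4 points mostly below it.

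The 3-D and 2-D formats share treatment names within 2 pairs of arrangements. Between 3DMono and 2DMono (6 tags each, treatment as covariate), 8 members were higher and 13 lower in 3-D of 41 tested, against 37% of 22671 genes called (17.1% higher and 19.9% lower). Median log2 fold changes were -0.09 for the tested members and 0.03 for all genes tested. For 16 members the tags of the 2 groups did not overlap, against 19.3% of all genes. The glycine receptor alpha subunits GLRA1 and GLRA2, GABBR2 and GRIN2A were lower in 3-D, and GRIK3, GRIK5, GABRA3 and GABBR1 were higher. No AMPA subunit was called, and neither was GLRA3, the third alpha subunit (log2 change 0.13 ± 0.33, edgeR adjusted p = 0.796). Format and culture mix change together in these names and cannot be told apart.

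GLRA2 had 22.6 to 52.3 CPM (median 30.5) in 3DMono and 56.9 to 159 CPM (median 121) in 2DMono, with no overlap (log2 change -1.78 ± 0.24, edgeR adjusted p = 6.94e-05). GLRA1 had 7.63 to 12.5 CPM (median 9.06) in 3DMono and 17 to 29.2 CPM (median 20.8) in 2DMono, again with every 3-D tag below every 2-D tag (log2 change -1.19 ± 0.14, edgeR adjusted p = 1.71e-05). GABBR2 had 59.2 to 99.8 CPM (median 71.4) in 3DMono and 223 to 550.3 CPM (median 269.7) in 2DMono (log2 change -2.09 ± 0.21, edgeR adjusted p = 6.31e-06). Its partner GABBR1 went the other way. GABBR1 had 94.9 to 127 CPM (median 120.4) in 3DMono and 65.2 to 84.1 CPM (median 70.7) in 2DMono (log2 change 0.67 ± 0.09, edgeR adjusted p = 4.23e-05), and neither GABA-B subunit overlapped between formats. GRIN2A had 23.1 to 34 CPM (median 27.5) in 3DMono and 76.5 to 145 CPM (median 102) in 2DMono (log2 change -1.91 ± 0.17, edgeR adjusted p = 1.16e-06), whereas GRIN2B had 266 to 388 CPM (median 293) in 3DMono and 285 to 367 CPM (median 326) in 2DMono, which overlap (log2 change -0.09 ± 0.11, edgeR adjusted p = 0.545). GRIA2 had 351 to 457 CPM (median 440.3) in 3DMono and 214 to 456 CPM (median 343) in 2DMono, which overlap (log2 change 0.39 ± 0.17, edgeR adjusted p = 0.0886). GABRA2 had 25.2 to 35.9 CPM (median 26.8) in 3DMono and 27.4 to 70.01 CPM (median 41.1) in 2DMono, also overlapping (log2 change -0.59 ± 0.19, edgeR adjusted p = 0.0238), and its call was kept in 10 of 16 other settings (adjusted p up to 0.307).

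Among kainate subunits GRIK3 had 173 to 387 CPM (median 193) in 3DMono and 75.7 to 133 CPM (median 102) in 2DMono (log2 change 1.16 ± 0.21, edgeR adjusted p = 0.000918). GRIK5 had 65 to 109 CPM (median 83.2) in 3DMono and 30.4 to 51.6 CPM (median 38.1) in 2DMono (log2 change 1.08 ± 0.11, edgeR adjusted p = 2.49e-06). GRIK4 had 42.3 to 57.9 CPM (median 53.5) in 3DMono and 73.3 to 143 CPM (median 86) in 2DMono (log2 change -0.82 ± 0.13, edgeR adjusted p = 0.000196). For all 3 the formats did not overlap, with GRIK4 low and the others high in 3-D. Of the GABA-A subunits, GABRA3 had 27.6 to 35.3 CPM (median 33.6) in 3DMono and 9.93 to 18.6 CPM (median 13.8) in 2DMono, with no overlap (log2 change 1.19 ± 0.14, edgeR adjusted p = 1.1e-05). GABRA5, an alpha subunit of extrasynaptic receptors, was sparse, with 0.478 to 1.99 CPM (median 0.858) in 3DMono and 2.73 to 6.08 CPM (median 4.14) in 2DMono (log2 change -1.88 ± 0.33, edgeR adjusted p = 0.000523). GABRA4 was sparse as well, with 0.547 to 1.72 CPM (median 0.995) in 3DMono and 2.09 to 3.28 CPM (median 2.77) in 2DMono (log2 change -1.34 ± 0.26, edgeR adjusted p = 0.00112). Both lay lower in every 3-D tag than in any 2-D tag. The presynaptic receptor GRM7 had 55.8 to 74.7 CPM (median 56.9) in 3DMono and 97 to 166 CPM (median 109.8) in 2DMono (log2 change -0.93 ± 0.13, edgeR adjusted p = 8.13e-05), and GRM4 fell by 1.40 on the log2 scale, at low counts. GRM6 had 1.09 to 2.80 CPM (median 2.15) in 3DMono and 0.147 to 1.36 CPM (median 0.586) in 2DMono and was called higher in 3-D, having reached the low-count filter only through 3DMono. The accessory NMDA subunits GRIN3A and GRIN3B changed by -0.96 and 1.29.

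The makeup of the cultures differed beside these genes. Astrocyte markers were 0 higher and 6 lower of 8 tested (median log2 fold change -2.16), neuron markers 1 higher and 1 lower of 8 tested (median log2 fold change -0.16) and mesenchymal markers 2 higher and 3 lower of 8 tested (median log2 fold change -0.62). The summed astrocyte markers ran from 640.1 to 878 CPM in 3DMono and from 786 to 1052 CPM in 2DMono, which overlap. Summed mesenchymal markers ran from 157 to 588 CPM (median 333) in 3DMono and from 562 to 1531 CPM (median 946) in 2DMono, overlapping only at the ends. Other marker lists gave progenitor markers 2 higher and 4 lower of 8, cycling markers 1 higher and 0 lower of 8 and choroid plexus markers 1 higher and 2 lower of 5. GRIN2A and GABBR2 had high medians in astrocyte-marker cells above. For GABBR2 the 1 astrocyte tag of 2DMono, at 377 CPM, lay inside the range of whole 2DMono cultures, and the 3 of 2DCocu, at 163, 207 and 555 CPM, overlapped its neuron-gated cells (109.8 to 192 CPM). The part of cell makeup in their difference between formats was not tested with all cells together.

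Between 3DFusi (10 tags) and 2DCocu (12 tags), 10 members were higher and 15 lower in 3-D of 41 tested, against 48.3% of 23504 genes called (25.2% higher and 23.1% lower), and the groups did not overlap for 3 members against 6.52% of all genes. The tested members had a median log2 fold change of -0.23, against 0.03 over all genes tested. GLRA2 had 16.8 to 59.1 CPM (median 31.4) in 3DFusi and 43.8 to 185 CPM (median 129.9) in 2DCocu (log2 change -1.89 ± 0.23, edgeR adjusted p = 4.86e-07). Only the tails of the 2 groups overlapped. GABBR2 had 46.3 to 142 CPM (median 72.2) in 3DFusi and 151 to 206 CPM (median 171) in 2DCocu with no overlap (log2 change -1.04 ± 0.16, edgeR adjusted p = 1.08e-05). GRIN2A had 29.1 to 174 CPM (median 88.5) in 3DFusi and 145 to 352 CPM (median 187) in 2DCocu, with overlap (log2 change -1.22 ± 0.19, edgeR adjusted p = 1.84e-05). GLRA2, GABBR2 and GRIN2A were thus lower in 3-D in both format comparisons, as were GRIK4, GRIN3A, GRM7, GLRA1, GABRA5, GRM4 and GABRE, while GRIK3, GRIK5, GRIN3B, GABRA3, GABRA6 and GABBR1 were higher in both. GRM6 was called higher in both as well, but between the Mono formats it reached the low-count filter only through 3DMono. Of all these members, GRM4 was kept between 3DFusi and 2DCocu in 15 of 27 other settings (adjusted p up to 0.361), GRIK5 in 17 of 27 other settings (adjusted p up to 0.0878), and GABRE between the Mono formats in 11 of 16 other settings (adjusted p up to 0.465). The 10 tags of 3DFusi enter as separate although tags of the same number deviated together. With those tags summed, 24 of 41 members were called, beside 8854 of 21955 genes (40.3%), and GRM4 was the one lost (log2 change -0.57, edgeR adjusted p = 0.117).

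AMPA subunits, uncalled between the Mono formats, changed here in different directions. GRIA3 had 82.1 to 254 CPM (median 118) in 3DFusi and 267 to 391 CPM (median 335) in 2DCocu with no overlap (log2 change -1.31 ± 0.17, edgeR adjusted p = 1.08e-06). GRIA4 had 37.4 to 136 CPM (median 57.7) in 3DFusi and 103 to 221 CPM (median 139.9) in 2DCocu (log2 change -1.04 ± 0.17, edgeR adjusted p = 3.62e-05). GRIA1 had 236 to 957 CPM (median 486) in 3DFusi and 323 to 429.5 CPM (median 381) in 2DCocu (log2 change 0.50 ± 0.17, edgeR adjusted p = 0.02). GRIA1 was higher and GRIA4 lower in 3-D with overlapping tags, and GRIA2 did not pass (log2 change 0.35 ± 0.21, edgeR adjusted p = 0.173). GRIK1 fell (log2 change -1.03 ± 0.13, edgeR adjusted p = 1.02e-06) and GRIK3 rose (log2 change 0.93 ± 0.19, edgeR adjusted p = 0.000352). GRM6 had 1.06 to 3.25 CPM (median 2.11) in 3DFusi and 0.104 to 1.03 CPM (median 0.691) in 2DCocu with no overlap (log2 change 1.62 ± 0.23, edgeR adjusted p = 5.66e-06). GABRE fell (log2 change -1.35 ± 0.19, edgeR adjusted p = 4.74e-06) and GABRG1, a gamma subunit, rose (log2 change 1.14 ± 0.36, edgeR adjusted p = 0.0117). GLRA1 and GLRA3 changed by -0.80 and -0.91 (GLRA3 was at 0.0494 in the Vehic tags alone), GABRA5 by -0.81, GRIN3A by -0.78, GRIN3B by 1.15 and GABBR1 by 0.24. GRIN2B and GABRA2 did not pass, at -0.20 and 0.05. With these, cycling markers were 5 higher and 0 lower of 8 tested (median log2 fold change 0.81), mesenchymal markers 4 higher and 0 lower of 8 tested (median log2 fold change 0.69) and astrocyte markers 0 higher and 2 lower of 7 tested (median log2 fold change 0.19), with neuron markers 3 higher and 3 lower of 8, progenitor markers 3 higher and 2 lower of 8 and choroid plexus markers 2 higher and 0 lower of 5. Summed cycling markers ran from 176 to 1219 CPM in 3DFusi and 227 to 405 CPM in 2DCocu, mesenchymal markers from 196 to 4378 and 472 to 1739.8 CPM and astrocyte markers from 465 to 1053 and 669 to 869 CPM. Their part in these differences was not tested.

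In the 5 arrangements without a treatment name, GLRA2, GABBR2 and GRIN2A were not lower in 3-D. GLRA2 was at 29.6 and 30.3 CPM in 2DProto2Fjo, 19.6 and 22.8 CPM in 2DProto3Wu and 32.3 and 53.4 CPM in 2DProto4Nic. In 3DProto1For it was at 35.7, 38.5 and 54.4 CPM and in 3DProto2Xia at 52.3, 61.5 and 69.4 CPM. All 12 of these 2-D and 3-D tags lay below the 2DMono and 2DCocu medians of 126 and 129 CPM, and the highest 2-D value lay among the 3-D ones. GABBR2 was at 80.5 and 89.7 CPM, 62.5 and 65.4 CPM and 42.7 and 44.7 CPM in these 2-D arrangements, in the same order, and at 111, 130.2 and 234 CPM and 135, 172 and 188 CPM in the 3-D ones. There the 3-D tags were the higher, the reverse of the Mono, Cocu and Fusi names. GRIN2A was at 32.8 and 36.5 CPM, 28.8 and 31.5 CPM and 41.7 and 60.5 CPM against 59.3, 79.3 and 126 CPM and 61.6, 72.6 and 76 CPM. Its 3-D tags again lay higher, with an overlap of 1 tag of 2DProto4Nic. Of the 17 members called the same way in both format comparisons, 5 had the opposite order in the means of all these arrangements (GABBR2, GLRA2, GRIN2A, GRIN3A and GRM7), 3 the same order (GABBR1, GABRE and GRM6) and 9 neither. For GLRA2 that order rests on means of 42.8 CPM in 2DProto4Nic and 42.8 CPM in 3DProto1For, a gap far inside the spread between tags (SD 14.9 and 10.1). GRM6 was at 0.148 to 1.71 CPM (median 0.679) in the 6 2-D tags and 1.48 to 2.48 CPM (median 2.10) in the 6 3-D tags. It is among the 17 although it reached the low-count filter between the Mono formats only through 3DMono. GABRE, which was lower in 3-D, was at 3.24 to 19.5 CPM (median 4.49) in the 6 2-D tags and 0.316 to 6.15 CPM (median 2.42) in the 6 3-D tags. The tags of both overlapped between formats. With 2 or 3 tags an arrangement, no test was made between them.

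**Figure D3:**
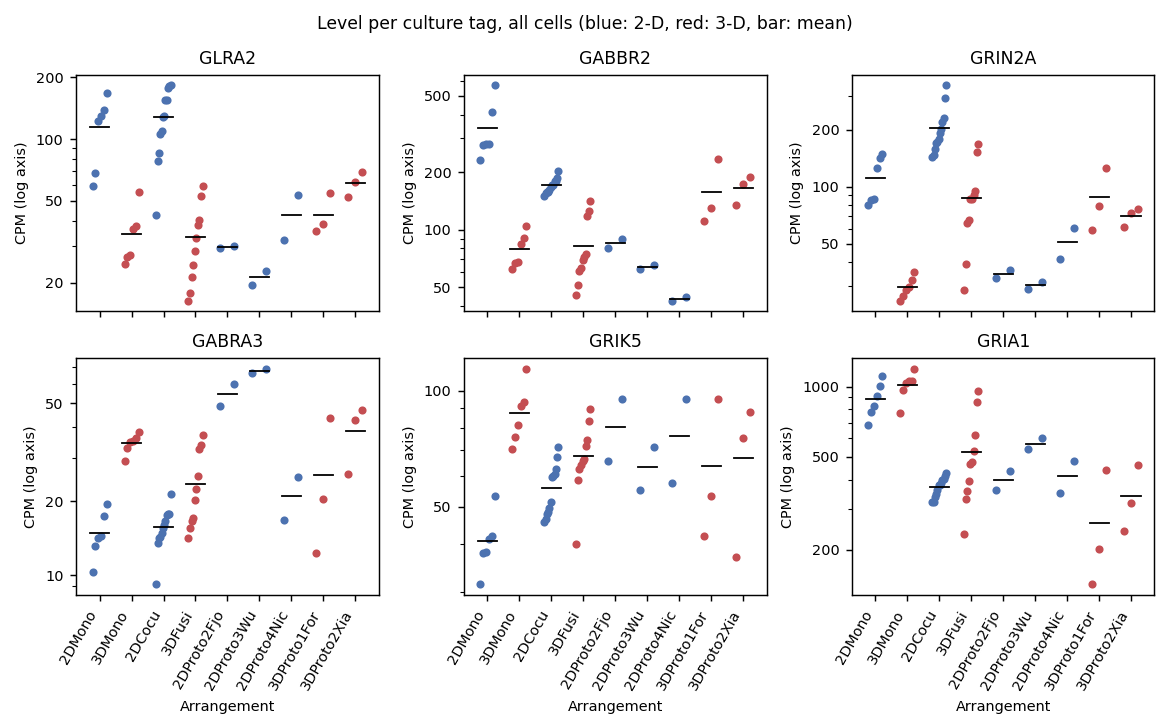
Level of 6 receptor genes in all cells of each of 46 tags (points, CPM on a log axis) by arrangement, 2-D in blue and 3-D in red, with a bar at the mean. GLRA2 is high in 2DMono and 2DCocu and low in the other 7 arrangements, and GABBR2 is lower in the other 2-D arrangements than in 3DProto1For and 3DProto2Xia.

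The lower GLRA2 of 3DMono and of 3DFusi was also measured within glutamatergic-gated cells. Between 3DMono (6 tags) and 2DMono (5 tags with 20 or more cells), 7 members were higher and 5 lower of 34 tested, against 15.5% of all genes called (6.57% higher and 8.97% lower). Over the tested members the median log2 fold change was 0.18, and over all genes tested 0.03. The tags did not overlap for 6 members, against 9.98% of genes. GLRA2 had 7.73 to 48.2 CPM (median 14.4) in 3DMono and 206, 107, 197, 290.1 and 225 CPM in the 5 2DMono tags. Every 3-D tag was below every 2-D tag (log2 change -3.72 ± 0.28, edgeR adjusted p = 4.81e-07). GRM5 had 211 to 369 CPM (median 281) in 3DMono and 40.8, 68.8, 43.5, 59.5 and 124 CPM in 2DMono, where every tag was lower than in 3DMono (log2 change 2.07 ± 0.25, edgeR adjusted p = 3.58e-05). GABRA3 had 29.5 to 53.5 CPM (median 44.4) against 17.8, 5.10, 13.5, 17.3 and 21.6 CPM (log2 change 1.42 ± 0.26, edgeR adjusted p = 0.000879), and GRIK5 85.1 to 150.4 CPM (median 104) against 45.8, 61.2, 69.2, 53.8 and 64.7 CPM (log2 change 0.86 ± 0.17, edgeR adjusted p = 0.0019). Both were higher in every 3-D tag.

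GLRA1 had 6.99 to 16.2 CPM (median 9.07) in 3DMono and 43.3, 17.8, 19.6, 19.2 and 31.4 CPM in 2DMono (log2 change -1.43 ± 0.30, edgeR adjusted p = 0.00235), and was lower in every 3-D tag. GRM4 had 1.13 to 4.47 CPM (median 1.78) and 7.64, 12.7, 4.90, 11.5 and 15.8 CPM, without overlap, but reached the low-count filter only through 2DMono, so it is given as a description. GRIA1 (log2 change 0.82 ± 0.24, edgeR adjusted p = 0.0298), GRIN1 (log2 change 1.46 ± 0.46, edgeR adjusted p = 0.0484), GABRB2 (log2 change 1.07 ± 0.24, edgeR adjusted p = 0.00517) and GABBR1 (log2 change 0.68 ± 0.17, edgeR adjusted p = 0.0111) rose with overlapping tags, and GRIN3A (log2 change -1.33 ± 0.42, edgeR adjusted p = 0.0375) and GRM7 (log2 change -1.11 ± 0.19, edgeR adjusted p = 0.000543) fell. GRIN2A, called in whole cultures, did not pass here (log2 change -0.16 ± 0.37, edgeR adjusted p = 0.834), nor did GRIN2B (log2 change 0.57 ± 0.21, edgeR adjusted p = 0.0831), GRIA2 (log2 change 0.35 ± 0.16, edgeR adjusted p = 0.161) or GABRA2 (log2 change 0.05 ± 0.24, edgeR adjusted p = 0.935). The calls of GRIN1, GRIN3A and GRIA1 were kept in 8 of 17 other settings (adjusted p up to 0.835), in 10 of 17 other settings (adjusted p up to 0.241) and in 12 of 17 other settings (adjusted p up to 0.132). Inside this gate neuron markers were 1 higher and 4 lower of 8 tested (median log2 fold change -0.48), cycling markers 0 higher and 3 lower of 7 tested (median log2 fold change -0.85) and astrocyte markers 0 higher and 3 lower of 5 tested (median log2 fold change -2.18), with progenitor markers 1 higher and 1 lower of 6 and mesenchymal markers 0 higher and 0 lower of 7. Summed, they ran from 4333 to 5433, 116 to 219.7 and 390.3 to 586 CPM in 3DMono and from 4774 to 6061, 198 to 432 and 407 to 857 CPM in 2DMono, overlapping for each list, with AQP4 at 0 in 2DMono. Their part in these differences was not tested.

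Between 3DFusi (9 tags) and 2DCocu (11 tags), 14 members were higher and 6 lower of 33 tested in glutamatergic-gated cells, against 29.3% of all genes called (15.7% higher and 13.6% lower). Median log2 fold changes were 0.47 for the tested members and 0.06 for all genes tested. Of the called members, 3 higher in 3-D (GABRA4, GABRG1 and GLRA3) and 1 lower (GRM4) reached the low-count filter only through the format where they are high, so their values are given as a description with no test. Among GABA-A subunits, GABRA2, GABRA3 and GABRB2 were higher in 3-D and were called with tags of the same number summed as well. GABRB1 was higher too (log2 change 1.26 ± 0.42, edgeR adjusted p = 0.0306), at an adjusted p of 0.0672 with those tags summed, GABRG3 did not pass (log2 change 0.47 ± 0.26, edgeR adjusted p = 0.186), and 6 GABA-A members were under the filter. GLRA2 had 7.52 to 64.8 CPM (median 28.1) in 3DFusi and 149 to 347 CPM (median 224) in 2DCocu (log2 change -3.05 ± 0.24, edgeR adjusted p = 1.27e-08). It was the only member (1) whose groups did not overlap, against 3.13% of genes. GABRA2 had 30.5 to 193 CPM (median 105) in 3DFusi and 19.2 to 76.6 CPM (median 34.5) in 2DCocu (log2 change 1.40 ± 0.30, edgeR adjusted p = 0.00176). GABRB2 had 43.4 to 197 CPM (median 129) in 3DFusi and 19.2 to 85 CPM (median 46.4) in 2DCocu (log2 change 1.37 ± 0.23, edgeR adjusted p = 0.000144). GABRA3 had 27.4 to 62 CPM (median 48.3) in 3DFusi and 0 to 27.6 CPM (median 22.7) in 2DCocu (log2 change 1.18 ± 0.21, edgeR adjusted p = 0.000192). The tags of all 3 overlapped. GABRG1 had 0 to 49.8 CPM (median 24.4) in 3DFusi and 0 to 6.22 CPM (median 0.969) in 2DCocu and GABRA4 0.296 to 28.8 CPM (median 7.67) in 3DFusi and 0 to 3.11 CPM (median 0) in 2DCocu, at or near 0 in most 2DCocu tags. GRM7 had 41.9 to 603 CPM (median 317) in 3DFusi and 13.7 to 235 CPM (median 77.4) in 2DCocu (log2 change 1.76 ± 0.42, edgeR adjusted p = 0.00458) and GLRA3 1.42 to 34.1 CPM (median 8.30) in 3DFusi and 0 to 10.7 CPM (median 1.89) in 2DCocu.

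AMPA subunits moved apart here as well: GRIA1 (log2 change 1.07 ± 0.16, edgeR adjusted p = 2.43e-05) and GRIA2 (log2 change 0.55 ± 0.14, edgeR adjusted p = 0.00598) rose and GRIA4 (log2 change -1.19 ± 0.33, edgeR adjusted p = 0.0115) fell. GRIN2B (log2 change 0.90 ± 0.18, edgeR adjusted p = 0.000884) and GRIN1 (log2 change 0.75 ± 0.25, edgeR adjusted p = 0.0268) rose, while GRIN2A did not pass (log2 change 0.43 ± 0.47, edgeR adjusted p = 0.54). GRIK3 rose (log2 change 0.77 ± 0.27, edgeR adjusted p = 0.0394) and GRIK2, a core kainate subunit, fell (log2 change -0.78 ± 0.15, edgeR adjusted p = 0.000512). GRM3 fell (log2 change -0.44 ± 0.15, edgeR adjusted p = 0.0265), GRM4 had 0 to 12.9 CPM (median 6.81) in 3DFusi and 5.30 to 53.5 CPM (median 19.2) in 2DCocu, and GABBR1 rose (log2 change 0.50 ± 0.12, edgeR adjusted p = 0.00293). With the Vehic tags alone, 4 members were called of 27 tested, beside 409 of 7223 genes, from fewer tags. With 3DFusi tags of the same number summed, 13 were called of 30, beside 2582 of 12022 genes. GRIA3, GRIK3, GRIN1, GRM3 and GABRB1 then lost the call (edgeR adjusted p from 0.0626 to 0.173), GABRA4, GABRG1 and GLRA3 did not pass the low-count filter, and GRM8 gained a call. The call of GRIK3 was kept in 11 of 27 other settings (adjusted p up to 0.33) and that of GRIN1 in 20 of 27 other settings (adjusted p up to 0.626). Beside these, neuron markers were 2 higher and 3 lower of 8 tested (median log2 fold change -0.25), mesenchymal markers 2 higher and 0 lower of 6 tested (median log2 fold change 1.33), cycling markers 0 higher and 1 lower of 5 tested (median log2 fold change -0.97) and astrocyte markers 0 higher and 2 lower of 5 tested (median log2 fold change -0.06), with progenitor markers 1 higher and 1 lower of 5. Their sums ran from 4011 to 5376, 48.9 to 1106, 4.83 to 388 and 389 to 743 CPM in 3DFusi and from 4179 to 5332, 53.6 to 688, 56.4 to 395 and 361 to 565 CPM in 2DCocu, overlapping for each list. What they contribute was not tested.

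In GABAergic-gated cells most called members were lower in 3-D. Between 3DMono and 2DMono (6 tags each), 2 were higher and 13 lower of 32 tested, against 18.1% of all genes called (6.48% higher and 11.6% lower). The tested members had a median log2 fold change of -0.41, against 0.02 over all genes tested. Groups did not overlap for 6 members, against 8.08% of genes. GABBR2 had 49 to 81.6 CPM (median 60.2) in 3DMono and 130.3 to 556 CPM (median 234) in 2DMono (log2 change -1.95 ± 0.28, edgeR adjusted p = 0.000409). GABRG3 had 65.2 to 158 CPM (median 95.2) in 3DMono and 193 to 441 CPM (median 415) in 2DMono (log2 change -1.85 ± 0.24, edgeR adjusted p = 0.000186). GRM5 had 140.4 to 219.6 CPM (median 179.6) in 3DMono and 282 to 525 CPM (median 402) in 2DMono (log2 change -1.16 ± 0.17, edgeR adjusted p = 0.000174). For all 3 every 3-D tag was below every 2-D tag. GRIA1 had 693 to 929 CPM (median 817) in 3DMono and 1059.7 to 1573 CPM (median 1340.3) in 2DMono (log2 change -0.69 ± 0.10, edgeR adjusted p = 0.000182) and GRIN2B 229 to 453 CPM (median 319) in 3DMono and 479.6 to 689.6 CPM (median 566) in 2DMono (log2 change -0.78 ± 0.17, edgeR adjusted p = 0.00363), also without overlap. GLRA2 had 34.1 to 82.1 CPM (median 62.9) in 3DMono and 65.8 to 186 CPM (median 130.5) in 2DMono, which overlap (log2 change -1.01 ± 0.25, edgeR adjusted p = 0.0117).

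Also lower in 3DMono GABAergic-gated cells were GRIN2A (log2 change -1.89 ± 0.38, edgeR adjusted p = 0.0051), GABRA2 (log2 change -1.18 ± 0.27, edgeR adjusted p = 0.00766), GRM4 (log2 change -1.43 ± 0.35, edgeR adjusted p = 0.0104), GRM3 (log2 change -0.73 ± 0.18, edgeR adjusted p = 0.011), GLRA1 (log2 change -1.12 ± 0.25, edgeR adjusted p = 0.00408) and GABRB2 (log2 fold change -0.95). Only GRIK5 (log2 change 0.55 ± 0.15, edgeR adjusted p = 0.0143) and GABRA3 (log2 fold change 0.68) were higher. GRIA2 did not pass (log2 change -0.34 ± 0.19, edgeR adjusted p = 0.238). GABRG1, also among the lower calls, reached the low-count filter only through 2DMono, with medians of 1.85 CPM in 3DMono and 4.73 CPM in 2DMono. With the Vehic tags alone, 3 members were called, beside 433 of 12447 genes, from fewer tags, and the call of GABRA3 was kept in 11 of 18 other settings (adjusted p up to 0.455). Astrocyte markers were 0 higher and 4 lower of 5 tested (median log2 fold change -2.28), neuron markers 0 higher and 3 lower of 8 tested (median log2 fold change -0.14) and progenitor markers 0 higher and 1 lower of 6 tested (median log2 fold change -0.79) in this gate, with mesenchymal markers 0 higher and 2 lower of 6 and cycling markers 0 higher and 0 lower of 8. Summed astrocyte markers ran from 381 to 455 CPM in 3DMono and 497 to 858 CPM in 2DMono, without overlap. Progenitor markers ran from 140.4 to 248 CPM and 253 to 489.7 CPM, again without overlap, and neuron markers from 3216 to 4612 and 2940.2 to 4826 CPM. Cycling markers ran from 432 to 599 CPM in 3DMono and 350 to 669 CPM in 2DMono. In all cells they ran from 435 to 612 and 366 to 513 CPM, so this gate was not clearly poorer in them than whole cultures. Their part was not tested.

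Between 3DFusi (10 tags) and 2DCocu (12 tags), 4 were higher and 15 lower of 32 tested in GABAergic-gated cells, against 39.3% of all genes called (19.7% higher and 19.6% lower). Over the tested members the median log2 fold change was -0.30, and over all genes tested 0.05. Of 7 NMDA and delta genes tested 5 were lower, and of 4 glycine receptor genes 3 were lower. GRIN3A had 5.05 to 17.9 CPM (median 10.5) in 3DFusi and 24 to 78.1 CPM (median 39.3) in 2DCocu (log2 change -2.09 ± 0.22, edgeR adjusted p = 5.18e-08). GABBR2 had 50.8 to 121 CPM (median 72.5) in 3DFusi and 173 to 309 CPM (median 252) in 2DCocu (log2 change -1.66 ± 0.15, edgeR adjusted p = 4.19e-09). GRIA3 had 129 to 202 CPM (median 163) in 3DFusi and 258 to 579 CPM (median 416) in 2DCocu (log2 change -1.29 ± 0.12, edgeR adjusted p = 2.45e-09). These were the 3 members whose groups did not overlap, against 4.46% of genes, and all were lower in 3-D. GLRA2 had 38.8 to 104 CPM (median 58.7) in 3DFusi and 85.2 to 291 CPM (median 175) in 2DCocu (log2 change -1.56 ± 0.18, edgeR adjusted p = 4.09e-07), GLRA3 1.03 to 14.6 CPM (median 3.85) in 3DFusi and 8.83 to 44.2 CPM (median 17.7) in 2DCocu (log2 change -2.04 ± 0.40, edgeR adjusted p = 0.000284) and GLRA1 6.16 to 24.3 CPM (median 10.4) in 3DFusi and 21.3 to 28.8 CPM (median 25.8) in 2DCocu (log2 change -1.17 ± 0.16, edgeR adjusted p = 3.39e-06).

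GRIA4 (log2 change -1.77 ± 0.27, edgeR adjusted p = 2.39e-05), GRIN2D (log2 change -1.14 ± 0.14, edgeR adjusted p = 4.51e-07), GRIN1 (log2 fold change -0.95), GRM7 (log2 change -0.87 ± 0.16, edgeR adjusted p = 0.000128), GRIN2A (log2 change -0.84 ± 0.29, edgeR adjusted p = 0.0257), GRIK4 (log2 change -0.82 ± 0.15, edgeR adjusted p = 0.000115) and GABRB1 (log2 change -0.61 ± 0.17, edgeR adjusted p = 0.00462) were lower too, and GRM5 by -0.35 on the log2 scale. GRIA1 (log2 change 0.96 ± 0.13, edgeR adjusted p = 1.38e-06), GRIA2 (log2 change 0.48 ± 0.11, edgeR adjusted p = 0.000961), GRIK3 (log2 change 0.63 ± 0.17, edgeR adjusted p = 0.00524) and GABBR1 (log2 change 0.38 ± 0.13, edgeR adjusted p = 0.0192) were higher. GRIN2B (log2 change -0.18 ± 0.11, edgeR adjusted p = 0.201) and GABRA2 (log2 change 0.23 ± 0.25, edgeR adjusted p = 0.502) did not pass. The Vehic tags alone gave 9 called members, beside 1789 of 10550 genes (17%), from fewer tags. With 3DFusi tags of the same number summed, 18 of 31 were called, beside 3955 of 12711 genes (31.1%). Cycling markers were 4 higher and 0 lower of 7 tested (median log2 fold change 1.56) and neuron markers 3 higher and 5 lower of 8 tested (median log2 fold change -0.38) in this gate, beside progenitor markers 2 higher and 0 lower of 6, astrocyte markers 0 higher and 2 lower of 5 and mesenchymal markers 1 higher and 0 lower of 7, with sums of 104 to 1552 and 3099.7 to 4663 CPM in 3DFusi and 18.4 to 437 and 2315 to 4125 CPM in 2DCocu, which overlap; what part they have in the result was not tested.

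**Figure D4:**
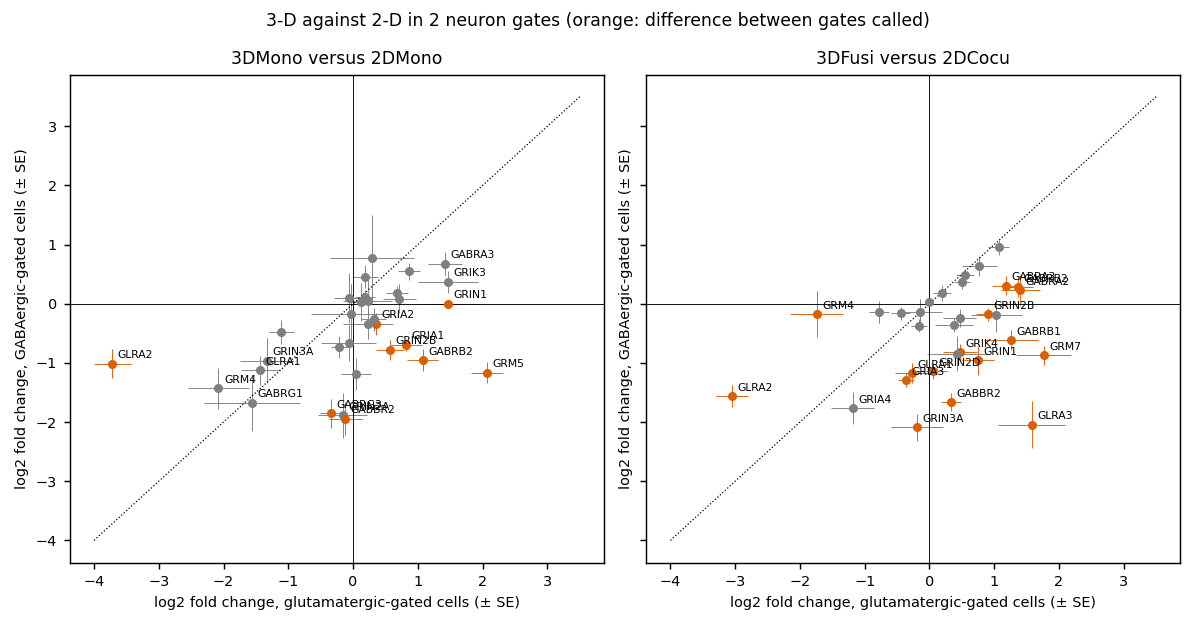
Log2 fold change of 3-D against 2-D for each member tested in both gates, in glutamatergic-gated (x axis) and GABAergic-gated cells (y axis), with SE bars, for 3DMono against 2DMono (left) and 3DFusi against 2DCocu (right). Orange points are members whose difference between gates was called, and the dotted line marks equal change. GLRA2 lies far to the left in both panels, and most other orange points lie below the dotted line.

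The difference between gates was itself tested as an interaction, in a test added after the data were seen. In the Mono pair 9 of 30 members passed, against 4.6% of genes, and in the Cocu and Fusi pair 16 of 31, against 18.1%. A positive value means a more positive 3-D change in glutamatergic-gated cells. In the Mono pair GRM5 (3.23 ± 0.31, adjusted p = 0.000105 by edgeR, log2 ± SE), GRIA1 (1.58 ± 0.23, adjusted p = 0.000737) and GRIN2B (1.35 ± 0.27, adjusted p = 0.011) were positive. GLRA2 (-2.71 ± 0.33, adjusted p = 0.000356) was the 1 member of the 9 with a negative value. In the Cocu and Fusi pair, GRM7 (2.41 ± 0.48, adjusted p = 0.00129) and GABBR2 (1.94 ± 0.15, adjusted p = 4.07e-10) were positive, and GLRA2 (-1.43 ± 0.30, adjusted p = 0.00202) negative. GLRA3 (3.27) and GRM4 (-2.05) are among the 16 as well. In the glutamatergic gate these 2 had reached the low-count filter only through the format where they are high, so their values are given as a description. The 9 3DFusi tags of that fit entered as separate although tags of the same number deviated together. With them summed by number into 3 units, 15 of 33 members were called, 14 of them among the 16, against 12.3% of genes. GABRA3 and GABRB2 lost the call (adjusted p = 0.0633 and 0.0719 by edgeR) and GABRG1 gained one, while GLRA2 was at -1.49 (adjusted p = 0.0127 by edgeR). In the glutamatergic gate GABRG1 too had reached the low-count filter only through 3DFusi, where it is high. The 15 thus include GLRA3, GRM4 and GABRG1, which are given as descriptions. GLRA2 thus fell further in glutamatergic-gated than in GABAergic-gated cells in both pairs.

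The cells inside each gate differed between formats. Of GABAergic-gated cells, 16.3% in 2DCocu and 86.5% in 3DFusi were DLX GABAergic, and 38.7% and 0.786% glycinergic, whereas DLX cells were 83.2% in 2DMono and 92.1% in 3DMono. Of glutamatergic-gated cells, 22.5% in 2DCocu, 49.4% in 3DFusi, 43.8% in 2DMono and 70.2% in 3DMono were cortical. The part of this makeup in the differences was not tested, and levels within the finer classes are given beside it. GLRA2 in cortical glutamatergic cells was at 316 CPM (193 to 448, 5 tags) in 2DCocu and 19.3 CPM (11.5 to 45.1, 5 tags) in 3DFusi. In the same class it was at 202 and 236 CPM (2 tags) in 2DMono and 12 CPM (4.16 to 19.1, 5 tags) in 3DMono. In non-cortical glutamatergic cells it was at 142 CPM (97.6 to 441, 10 tags) in 2DCocu and 22 CPM (12.7 to 40.5, 4 tags) in 3DFusi. In each of these classes the 2 formats did not overlap.

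In DLX GABAergic cells of the Mono pair, GABBR2 was at 184 CPM (107 to 403, 6 tags) in 2DMono and 64.3 CPM (45.9 to 84.3, 6 tags) in 3DMono. GABRG3 was at 422 CPM (211 to 512, 6 tags) and 94.9 CPM (76.2 to 156, 6 tags), and GRM5 at 452 CPM (262 to 497, 6 tags) and 181 CPM (119 to 247, 6 tags). All 3 were lower in every 3-D tag of this class, while GLRA2, at 126 CPM (67.9 to 214, 6 tags) and 72 CPM (47.4 to 82.3, 6 tags), overlapped. GRM5 in cortical glutamatergic cells had the opposite order, at 32.8 and 109.6 CPM (2 tags) in 2DMono and 317 CPM (229 to 387, 5 tags) in 3DMono. In DLX-negative GABAergic cells GRIA3 was at 326 CPM (262 to 474, 6 tags) in 2DCocu and 67.5 CPM (33.5 to 123, 4 tags) in 3DFusi, without overlap. In cortical glutamatergic cells its medians were 370.2 and 391 CPM. Some differences were smaller within a class than over the gate. GRIN3A in DLX-negative cells was at 34.6 CPM (18.5 to 52.4, 6 tags) and 23.2 CPM (22 to 55.4, 4 tags), and GABBR2 at 177 CPM (34.8 to 193, 6 tags) and 67.1 CPM (48.9 to 193, 4 tags), with overlap in both. GRM7 was at 73.7 CPM (16.6 to 194, 10 tags) and 673 CPM (309 to 844, 4 tags) in non-cortical glutamatergic cells, but at medians of 76.2 and 68.3 CPM in cortical ones, and GABRG1 was at 0 CPM (0 to 11.2, 10 tags) and 62.9 CPM (15.3 to 101, 4 tags) in non-cortical cells and at medians of 2.21 and 2.85 CPM in cortical ones.

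The series asks how cultures respond to dopamine, cocaine and morphine, and the treatment tags were compared with Vehic inside each arrangement. In all cells of 2DCocu (4 tags a group), 4 members were higher and 1 lower in AcCoc of 39 tested, against 6.1% of 21032 genes called (3.6% higher and 2.5% lower), and 3 were higher and 0 lower in AcMor, against 0.975% (0.685% higher and 0.29% lower). The 2 comparisons share the Vehic tags. The median log2 fold change over members was 0.16 for AcCoc and 0.22 for AcMor, against 0.00 and 0.01 over all genes. The groups did not overlap for 5 members in AcCoc, against 12.9% of genes, and for 9 in AcMor, against 9.31%.

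GRIA2 had 156, 146, 94.6 and 176 CPM in the Vehic tags, 255, 269, 349 and 260.2 CPM in AcCoc and 340.2, 283, 302 and 304 CPM in AcMor, in the order of tag numbers. Every AcCoc and AcMor tag was above every Vehic tag, for AcCoc (log2 change 0.98 ± 0.15, edgeR adjusted p = 0.00233) and AcMor (log2 change 1.10 ± 0.15, edgeR adjusted p = 0.00842). GABRB2, a beta subunit of common GABA-A receptors, had 20.6, 24.4, 15 and 24.5 CPM in the Vehic tags, 33.3, 33.1, 38.7 and 36.8 CPM in AcCoc and 40.7, 27.5, 41.3 and 35.3 CPM in AcMor. It too was above Vehic in every tag, for AcCoc (log2 change 0.75 ± 0.16, edgeR adjusted p = 0.0115) and AcMor (log2 change 0.77 ± 0.16, edgeR adjusted p = 0.0344). GLRA2 had 83.1, 77, 42.3 and 105 CPM in the Vehic tags, 126, 152, 181 and 179 CPM in AcCoc and 179.6, 127, 153 and 104 CPM in AcMor. It did not overlap for AcCoc (log2 change 1.05 ± 0.22, edgeR adjusted p = 0.013), and for AcMor 1 tag lay just under the highest Vehic tag and the call was missed (log2 change 0.87 ± 0.22, edgeR adjusted p = 0.0718). GLRB had 20.4, 19.9, 16.6 and 28.1 CPM in the Vehic tags, 34, 29.1, 36 and 26.3 CPM in AcCoc and 29.8, 25.6, 29.8 and 29.4 CPM in AcMor. AcCoc rose with an overlap of 1 tag (log2 change 0.57 ± 0.15, edgeR adjusted p = 0.0319), and AcMor did not pass (log2 change 0.43 ± 0.15, edgeR adjusted p = 0.175).

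GRIN2A had 223, 176, 340.0 and 283 CPM in the Vehic tags, 213, 168, 146 and 144 CPM in AcCoc and 157, 191, 198 and 169 CPM in AcMor. It was the member called lower in AcCoc, with 1 AcCoc tag inside the Vehic range (log2 change -0.60 ± 0.17, edgeR adjusted p = 0.0426), and it did not pass in AcMor (log2 change -0.51 ± 0.17, edgeR adjusted p = 0.151). GRIK2 had 344, 379, 225 and 402 CPM in the Vehic tags, 433, 446, 504 and 477 CPM in AcCoc and 708, 463, 507 and 547 CPM in AcMor. Every AcMor and AcCoc tag was above every Vehic tag, and the call was made for AcMor (log2 change 0.72 ± 0.15, edgeR adjusted p = 0.0416) and not for AcCoc (log2 change 0.46 ± 0.15, edgeR adjusted p = 0.083). Vehic 3 was the lowest Vehic tag for GRIA2, GABRB2, GLRA2, GLRB and GRIK2 and the highest for GRIN2A.

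Several signs of cell makeup moved with these genes. For the share of neuron-gated cells, the lowest, median and highest values were 31.7, 35.7 and 43% in Vehic, 60.6, 65.8 and 69% in AcCoc and 59.6, 63.1 and 63.5% in AcMor, so the neuron-gated share was higher in every treated tag than in any Vehic tag. Summed neuron markers were at 1753, 2373 and 2755 CPM in Vehic, 2847, 3114 and 3256 CPM in AcCoc and 2619.8, 2769 and 3250.4 CPM in AcMor. The share of glutamatergic-gated cells was 1.73, 2.83 and 4.05% in Vehic, 8.45, 10.2 and 15.2% in AcCoc and 6.85, 8.19 and 8.96% in AcMor, and that of GABAergic-gated cells 2.66, 4.43 and 6.98%, 9.18, 9.66 and 11.2% and 9.76, 10.4 and 12.2%. Both shares were higher in every treated tag than in any Vehic tag. Summed oligodendrocyte-lineage markers went the other way, at 44.2, 46.8 and 50.2 CPM in Vehic, 25.1, 28.5 and 33.2 CPM in AcCoc and 31, 36.3 and 43.9 CPM in AcMor, lower in every treated tag. Summed markers of ciliated cells were at 73.9, 79.8 and 82.7 CPM in Vehic and 42.9, 57.2 and 67.8 CPM in AcCoc, without overlap, and 49.7, 62.1 and 73.9 CPM in AcMor, whose highest tag met the lowest Vehic tag. Choroid plexus markers were at 25.3, 26.4 and 32 CPM in Vehic and 19.9, 21.5 and 23.1 CPM in AcCoc, without overlap, and 16.6, 22.5 and 28.9 CPM in AcMor, with overlap. By gene, the neuron markers were 5 higher and 0 lower of 8 tested (median log2 fold change 0.75) in AcCoc and 1 higher and 0 lower of 8 tested (median log2 fold change 0.53) in AcMor. Among neuron-gated cells only, GRIA2 had a median of 292 CPM (174 to 302) in Vehic, 395 CPM (353 to 456) in AcCoc and 441 CPM (428 to 550.2) in AcMor. By these medians the groups were still apart in neuron-gated cells, by less than in all cells. The median glutamatergic-gated share, given above, was higher by a larger factor than the neuron-gated share, and GRIA2 was higher in glutamatergic-gated than in GABAergic-gated cells, so the makeup of the neuron-gated cells moved beside these values too. Its part was not tested. GLRA2 was at 157 CPM (72.2 to 194), 234 CPM (186 to 254) and 208 CPM (145 to 273), GABRB2 at 38.8 CPM (21.2 to 50.9), 50.1 CPM (49.7 to 50.3) and 53.1 CPM (41.8 to 64.2), and GRIK2 at medians of 652, 647 and 751 CPM. GRIN2A was at 201 CPM (127 to 239.8), 108 CPM (75.5 to 150.2) and 115 CPM (98.8 to 152).

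The number of calls in all cells depended on single tags, and so did the number over all genes, which ran from 403 to 1434 for AcCoc and from 27 to 283 for AcMor as single tags were left out. For AcCoc the member calls numbered 9 without AcCoc 2, 2 without AcCoc 3, 3 without Vehic 1 and 3 without Vehic 3. For AcMor 1 was called without AcMor 1, AcMor 3, AcMor 4, Vehic 1 or Vehic 3, each left out in turn, and 5 without Vehic 4. With 1 fit over the 4 treated arrangements, 0 members were called for AcCoc and 0 for AcMor, and over all genes 0 of 24803 genes (0%) and 0 of 24803 genes (0%). The AcCoc calls were kept in 4 of 13 other settings (adjusted p up to 0.429) for GRIN2A and in 6 of 13 other settings (adjusted p up to 0.467) for GLRB, and the AcMor calls in 5 of 13 other settings (adjusted p up to 0.666) for GRIK2 and in 6 of 13 other settings (adjusted p up to 0.703) for GABRB2. The GRIA2 call was kept in 12 of 13 other settings for AcCoc and in 12 of 13 for AcMor. In AcCoc the calls of GABRB2 and GLRA2 were kept in 12 and 10 of 13. All of them were lost in the 1 fit over the 4 treated arrangements.

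In glutamatergic-gated cells of 2DCocu, where Vehic 3 had too few cells, 0 of 30 members were called in AcCoc (0.0184% of genes called) and 0 in AcMor (0.00918%). At an unadjusted p under 0.05 by edgeR there were 3 and 3 members, beside 841 and 633 of 10898 genes. DESeq2 called 0 and 0 members, beside 38 (0.349%) and 15 (0.138%) genes. GRIA2 was at 496, 594 and 523 CPM in Vehic tags 1, 2 and 4, 561, 564, 637 and 502 CPM in AcCoc and 771, 623, 704 and 597 CPM in AcMor. The AcCoc tags overlapped Vehic (log2 change 0.08 ± 0.13, edgeR adjusted p = 0.946), while all AcMor tags were above it without a call (log2 change 0.32 ± 0.13, edgeR adjusted p = 0.844).

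**Figure D5:**
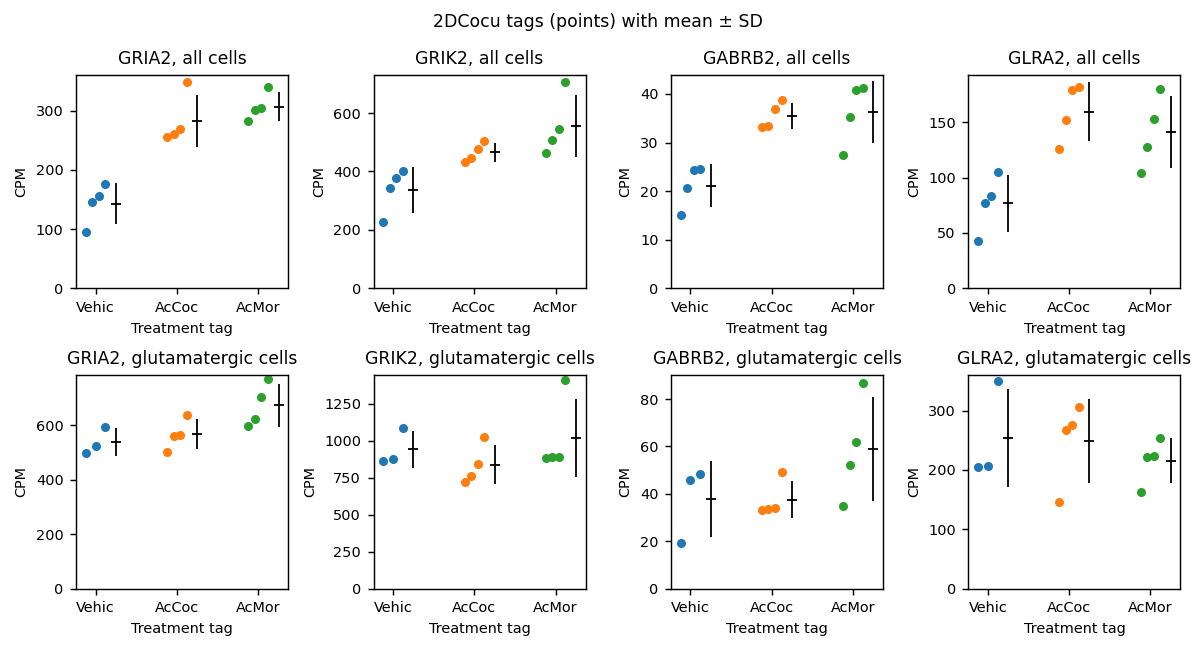
Level in CPM of GRIA2, GRIK2, GABRB2 and GLRA2 in the 2DCocu tags (points) with mean ± SD, for Vehic, AcCoc and AcMor, in all cells (top) and glutamatergic-gated cells (bottom, 3 Vehic tags). In all cells the treated tags sit above Vehic for GRIA2, GRIK2 and GABRB2, and in glutamatergic-gated cells GRIA2 in AcCoc overlaps Vehic.

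In the other 3 treated arrangements no member and no gene was called by edgeR (0% in each of 6 comparisons). Members at an unadjusted p under 0.05 numbered 3, 2, 1, 2, 2 and 6 for AcCoc and AcMor in 3DFusi, AcDop and AcMor in 2DMono and AcDop and AcMor in 3DMono, out of 393, 177, 467, 1247, 740 and 1925 genes. In the same order DESeq2 called 0, 0, 0, 0, 0 and 0 members, beside 1, 0, 13, 18, 20 and 178 genes (0.805% for AcMor in 3DMono). GRIA2 in 3DFusi had 498, 203 and 235 CPM in Vehic, 598, 380.3, 176 and 191 CPM in AcCoc and 374, 324 and 218 CPM in AcMor, with wide overlap (AcCoc 0.11 ± 0.45, adjusted p = 1 and AcMor -0.03 ± 0.48, adjusted p = 1 by edgeR, log2 fold change ± SE). The neuron-gated share there ran from 48.3 to 80.1% in Vehic, 35.6 to 84.8% in AcCoc and 64.8 to 70.03% in AcMor, also overlapping. Whether the AcCoc or AcMor difference in GRIA2 differs between 2DCocu and 3DFusi was not tested.

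Genes that act with the receptors were read from 2 lists, 39 receptor partners (auxiliary subunits, scaffolds, adhesion and chloride transport genes) and 20 genes of transmitter supply (synthesis, vesicle loading and uptake). Of the partners, the Mono formats gave 9 higher and 12 lower of 39 tested (median log2 fold change 0.14) and the Fusi and Cocu formats 11 higher and 11 lower of 39 tested (median log2 fold change -0.03). Of the supply genes they gave 5 higher and 4 lower of 20 tested (median log2 fold change 0.07) and 6 higher and 4 lower of 20 tested (median log2 fold change 0.02). In AcCoc of 2DCocu the partners were 4 higher and 0 lower of 39 tested (median log2 fold change 0.22) and the supply genes 5 higher and 1 lower of 20 tested (median log2 fold change 0.31); in AcMor they were 1 higher and 0 lower of 39 tested (median log2 fold change 0.19) and 1 higher and 0 lower of 20 tested (median log2 fold change 0.24). Between the glutamatergic and GABAergic gates the partners were 14 higher and 9 lower of 37 tested (median log2 fold change 0.09). These lists were set with earlier results of the data known, and their counts stand beside the 37%, 48.3%, 6.1%, 0.975% and 37.4% of all genes called.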

How the data were processed

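The series is 1 pool of split-pool barcoded cells, sequenced as 8 sublibraries from cultures that were dissociated before barcoding (with papain for 3-D cultures, per the labels' protocols). The authors deposited expected counts per gene and cell, of which 54.3% of entries are whole, 13.5% are below 1 and the lowest is 0.01. The submitters' processing notes name Salmon 1.7.0, alevin, Seurat 4.1.1 and the build hg38, without stating their roles, and counting by strand is not given in the sources used here. 0 columns of samples from outside the series were found.

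Expected counts were summed per tag, over all cells or the cells of a gate, and rounded. The unit of replication was the tag, with 20 or more cells. Differences were tested with edgeR 4.0.16 (quasi-likelihood, robust, TMM factors, filterByExpr, Benjamini-Hochberg threshold 0.05) in R 4.3.3, fitted on all genes that passed the filter. The fits of 3-D against 2-D held treatment as a covariate, those of treatments shared 1 spread within an arrangement, and those of glutamatergic against GABAergic cells held the tag as a block, with gating genes left out. SE is the log2 fold change divided by the root of F, an approximation. An entry of 0.5 or more was read as a count in gates. No doublet caller was run, and the 5% of cells with the highest totals were left out as an alternative. Intervals and counts of cells cover counting error only. DESeq2 1.42.0, RLE factors, no low-count filter, a looser gate, single tags left out and the tag number as a block were tried.

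Tags of the same number correlated in their deviations from the group means at 0.15 to 0.60 (9 pairs) in 3DFusi, over 0.1 in every pair, so numbers were read as pairing samples there. Across numbers the 3DFusi range was -0.57 to 0.38 (24 pairs), which overlaps, so the pairing is not certain. Within numbers the range was -0.35 to 0.12 (12 pairs) in 2DCocu, 0.07 to 0.27 (6 pairs) in 3DMono and -0.14 to 0.16 (6 pairs) in 2DMono, where numbers were not read as pairing. With 2 tags a group in the Mono arrangements, deviations mirror each other, so the 6 values are not independent. Across numbers they recur with the sign turned (-0.27 to -0.07 in 3DMono). Tags of 3DMono entered as separate although every value within numbers was positive, so pairing there is open. On simulated counts with known 2-fold and 4-fold changes, 76% and 98% were recovered for 3DMono against 2DMono, 77% and 95% for AcCoc in 2DCocu and 66% and 95% for 3DFusi against 2DCocu in glutamatergic-gated cells (22671, 21032 and 12629 genes). The simulated tags were independent, with 1 fixed spread for all genes of a comparison and only 100 genes changed by each fold. The real tags differ in these points, so the shares check the fitting and do not give the power of the real tests.

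In each comparison, per-tag values were given for at most 3 members of a family that passed, by size of change, and GRIA2, GRIN2A, GRIN2B, GABRA2 and GLRA2 were given wherever formats or gates were compared. Any other member may be named, with its test alone. The members, gene lists, gates and named-gene rule were chosen with earlier results of these data known, and the finer classes, the test between gates and the summing of 3DFusi tags after the files were seen. Promoter sequences are from RefSeq (GRCh38.p14).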

Additional observations from a re-analysis of the deposited data

Results flagged for a closer look

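For groups of 4 to 10 tags, the highest or lowest tag was set against the others by its gap over the group's range (Dixon's 95% value). Of 176 groups of member levels, 15 had such a tag. The usual rate of 1 in 20 holds for independent, normally distributed values. These groups were of called members, shared tags and could pool treatments, so the 15 cannot be set against that rate. In all cells of 3DMono and 2DMono, GABBR1 was at 94.9 CPM in 3DMono Vehic 1, below the nearest tag at 117 CPM. GABRA2 was at 35.9 CPM in 3DMono AcDop 2, above the nearest tag at 28.9 CPM. GRIK4 was at 143 CPM in 2DMono AcDop 2, above the nearest tag at 92.8 CPM. GRIN3B was at 4.39 CPM in 3DMono AcMor 1, above the nearest tag at 2.82 CPM. In all cells of 3DFusi and 2DCocu, GRM4 was at 11.6 CPM in 3DFusi AcMor 3, above the nearest tag at 7.39 CPM. In all cells of 2DCocu, GRIA2 was at 349 CPM in 2DCocu AcCoc 3, above the nearest tag at 269 CPM. In glutamatergic-gated cells of the Mono pair, GLRA2 was at 48.2 CPM in 3DMono AcMor 2, above the nearest tag at 18.3 CPM. GRM4 was at 4.47 CPM in 3DMono AcMor 1, above the nearest tag at 1.82 CPM. In glutamatergic-gated cells of the Cocu and Fusi pair, GABRB1 was at 276 CPM in 3DFusi Vehic 3, above the nearest tag at 145 CPM. GLRA3 was at 34.1 CPM in 3DFusi AcCoc 4, above the nearest tag at 11.3 CPM. In GABAergic-gated cells of the Mono pair, GABBR2 was at 556 CPM in 2DMono AcDop 2, above the nearest tag at 278 CPM. GLRA1 was at 29.9 CPM in 2DMono Vehic 2, above the nearest tag at 21 CPM. In GABAergic-gated cells of the Cocu and Fusi pair, GLRA1 was at 24.3 CPM in 3DFusi Vehic 4, above the nearest tag at 14.4 CPM. GLRA2 was at 104 CPM in 3DFusi AcMor 1, above the nearest tag at 69.7 CPM. GRIA2 was at 591 CPM in 3DFusi Vehic 4, above the nearest tag at 453 CPM. The tags that occur more than once among these are 2DMono AcDop 2, 3DFusi Vehic 4 and 3DMono AcMor 1, and no tag was far from the others in more than 2 of the groups.

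25 differences between the gates were called by edgeR (glutamatergic change minus GABAergic change of 3-D against 2-D, adjusted p at or under 0.05). In the Mono pair (11 tags) the log2 values were positive for GRM5 (3.23), GABRB2 (1.96), GABBR2 (1.79), GABRG3 (1.71), GRIA1 (1.58), GRIN1 (1.39), GRIN2B (1.35) and GRIA2 (0.85), with adjusted p from 0.000105 to 0.0447. They were negative for GLRA2 (-2.71, adjusted p = 0.000356). In the Cocu and Fusi pair (20 tags) the log2 values were positive for GLRA3 (3.27), GRM7 (2.41), GABBR2 (1.94), GRIN3A (1.78), GRIN1 (1.71), GABRB1 (1.69), GRIN2D (1.31), GABRB2 (1.12), GRIN2B (1.06), GRIK4 (1.05), GABRA2 (1.03), GRIA3 (0.95), GLRA1 (0.91) and GABRA3 (0.87), with adjusted p from 4.07e-10 to 0.0428. They were negative for GRM4 (-2.05) and GLRA2 (-1.43, adjusted p = 0.00202). In the glutamatergic gate GLRA3 and GRM4 had reached the low-count filter only through the format where they are high, so their values are descriptions. All genes listed here are those of the gate comparisons above, and the differing cell makeup of the gates in each format stands beside them there.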

How the results depend on the processing

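Of 2868 pairs of a called member and another setting, 2617 kept the call, 249 kept the direction and lost it, and 2 turned: GLRA3 between 3DFusi and 2DCocu (0.0494 in the Vehic tags alone) and GRIN2D between the gates (0.00365 without the 2DCocu tags), both in log2; the cause was not tested. Members called between formats numbered, with single tags left out, 18 to 27 (Mono, all cells), 23 to 25 (Fusi and Cocu, all cells), 9 to 14 and 16 to 21 (glutamatergic gate) and 13 to 17 and 18 to 20 (GABAergic gate). In the same fits and order, the genes called of all tested numbered 7337 to 8463, 10823 to 11768, 1522 to 2258, 3336 to 3787, 1965 to 2522 and 5082 to 5708. With the Vehic tags alone, which are fewer, the called members numbered 14 and 17 in all cells and 3 and 9 in the GABAergic gate (the Mono pair first). There 14.4%, 28.1%, 3.48% and 17% of all genes were called. In the glutamatergic gate of the Fusi and Cocu pair they numbered 4, where 5.66% of genes were called. For the Mono pair of that gate, 2DMono Vehic 2 had 15 cells, under the 20 needed, which left Vehic 1 alone. No count is given for that fit, although the other settings counted for single members there include it. Summing 3DFusi tags of the same number, chosen after seeing the data, gave 13 in the glutamatergic gate, where 21.5% of genes were called, and 15 in place of 16 members in the test between the gates. The 15 include GLRA3, GRM4 and GABRG1, which are given as descriptions above. In 2DCocu the AcCoc calls (5) ran from 2 to 9 without single tags and were 10 by DESeq2 (9.64% of genes, against 6.1% by edgeR), 3 with no low-count filter (2.97%), 3 with the tag number as a block (4.5%) and 0 in 1 fit over the 4 treated arrangements (0%). The AcMor calls (3) ran from 1 to 5, and were 7 by DESeq2 (3.45%, against 0.975%), 1 with the block (0.19%) and 0 in 1 fit (0%). The tags of 2DCocu share only a number (correlations of -0.35 to 0.12 within and -0.35 to 0.32 across numbers, so not every tag correlated best with its own number), and over all genes the block left 946 calls for AcCoc and 40 for AcMor. In 3DFusi correlations were 0.15 to 0.60 within and -0.57 to 0.38 across numbers, so there too not every tag correlated best with its own number. Numbers were still read as pairing in 3DFusi, and the block gave 0 members and 0 genes in both treatments. Without the low-count filter 1 or more members were called where edgeR had called 0: 1 for AcMor in 2DMono (0.453% of genes), 1 for AcDop (0.351%) and 4 for AcMor (1.81%) in 3DMono, and 1 for AcCoc in glutamatergic-gated cells of 2DCocu (0.328%). AcMor in 3DMono gave 0 to 1 members without single tags (1 without AcMor 2), beside 0 to 400 of all genes. The other treatment comparisons with 0 calls gave 0 members without any tag, where the calls over all genes reached at most 48 (AcDop in 3DMono). For the gates, each arrangement was left out in place of each tag, and leaving out single tags was not run. Low counts limit the sparse members, where depth and low expression cannot be told apart: GABRD and GABRP passed the low-count filter in 0 of 6 comparisons between formats, GRM6 in 2 and GRM2 in 3, and where they did not pass, no difference was tested.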
